A study of Mus musculus with 6 samples.

Results

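The genes described here are the insulin receptor, its docking proteins and adaptors and the phosphatase that turns it off, 10 genes compared between a line from adult and a line from embryonic mouse hypothalamus. Insulin acts on a cell through a small set of proteins that meet at the inner face of the plasma membrane. The insulin receptor Insr, a tyrosine kinase, phosphorylates the docking proteins Irs1, Irs2 and Irs4, which recruit PI3-kinase, and the adaptors Grb7, Grb10 and Grb14 bind the active receptor, Grb10 and Grb14 as brakes. Sh2b1 and Sh2b2 bind the receptor and related kinases through an SH2 domain, and the phosphatase Ptpn1 (PTP1B) takes the phosphates off again. In hypothalamic neurons these proteins carry the insulin signal that restrains feeding, and Sh2b1 and Ptpn1 also act on leptin signalling.

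These 10 genes were taken by name from a mouse oligonucleotide array, and all 10 were measured among 12393 genes tested. They were read by 15 of the 22690 probe sets, each of which the platform annotation names for 1 of these genes alone, with 6 genes on 1 probe set, 3 on 2 (Insr, Sh2b2 and Ptpn1) and 1 on 3 (Grb10). A pair of cell lines was compared, A_212 from adult mouse hypothalamus and N_46 from embryonic mouse hypothalamus, both labelled as expressing neuropeptide Y (Npy) and both immortalised by the large T protein of the virus SV40, which binds and disables p53 and the retinoblastoma family (SV40 T-antigen). For each line 3 plates were grown to 70% confluence in DMEM with 5% fetal bovine serum, with no other treatment stated, and each plate gave 1 array, so that 3 A_212 arrays were set against 3 N_46 arrays. Each age of origin is represented by 1 line, so age of origin and line cannot be told apart, and p-values measure the spread between plates, which may be technical.

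The deposited values are on a log2 scale, whose base was inferred, and each probe set is centred so that its median over the 6 arrays is 0. A value is therefore a distance from that median and not a level, and how abundant a member was, or whether it was expressed at all, cannot be read. Where the lines do not overlap on a probe set, the centring also makes its 2 innermost arrays mirror images, such as 0.71 and -0.71 for Irs2, read by 1 probe set. A gene value that averages several probe sets need not show this. A gene's value is the mean of its probe sets, and differences are A_212 minus N_46 with the standard error (SE) of a limma fit over all 12393 genes, Benjamini-Hochberg adjusted over all of them and called at an adjusted p under 0.05. Precision is limited by the number of arrays. The median difference over all genes was -0.06, and 61.0% of genes had a difference below 0. Arrays of one line correlated across genes (genes are not independent replicates) with r between 0.80 and 0.86 in A_212 and between 0.82 and 0.92 in N_46. Since the values are centred, r depends on the differences between the lines and is not an ordinary measure of replicate agreement. The median SD between arrays over genes was 0.10 in A_212 and 0.08 in N_46. Npy differed by -0.05 ± 0.08 (SE, n = 3 arrays per line, limma adjusted p = 0.66), and the centring leaves no way to check whether either line expressed it.

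The genes for 3 of these proteins have a shared feature in the DNA before their start, and it is shown here because Irs2, one of the members with a large difference, is among them. In RefSeq promoter windows of 300 bases (250 before and 50 after the gene start, build GRCm38.p6), the windows of Irs1, Irs2 and Irs4 each hold an E-box, CACGTG, which bHLH factors such as TFE3 bind, directly beside TGTTTTG, the reverse complement of CAAAACA, the core of the insulin response element that FOXO factors bind. The stretches below run 5′ to 3′ along the gene, which lies on the minus strand in all 3 cases, and capitals mark the E-box and the TGTTTTG word, which share 2 bases in Irs1.
Irs1, chr1:82291520-82291575, minus strand: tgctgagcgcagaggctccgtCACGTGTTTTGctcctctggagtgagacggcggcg
Irs2, chr8:11008939-11008994, minus strand: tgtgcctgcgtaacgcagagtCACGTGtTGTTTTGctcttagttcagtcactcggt
Irs4, chrX:141725337-141725392, minus strand: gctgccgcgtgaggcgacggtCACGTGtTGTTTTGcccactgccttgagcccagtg
The E-box began 115 bases before the gene start in Irs1, 44 bases before it in Irs2 and 154 bases before it in Irs4. Irs2 and Irs4 shared an unbroken run of 17 bases across both words, which 2 of the 32851 windows in the RefSeq table held. These 2 windows are those of Irs2 and Irs4, which hold the run by construction, since it was taken from them. An E-box followed by TGTTTTG, overlapping it or at most 10 bases further on and read on either strand, was found in 12 windows (0.0365%) of 10 genes. Irs1, Irs2 and Irs4 are among these genes, and this pairing was searched for after the IRS windows had been read. CACGTG alone was in 7.15% of windows and CAAAACA, on either strand, in 6.28%. These words are matches of letters and are not shown to be sites. Irs1 and Irs4, which hold them too, were not called (differences of -0.23 and -0.08). A link between the words and the Irs2 difference was not tested.

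For Grb10, the member with the largest difference, RefSeq lists 2 starts in this table. The window at the upstream start, chr11:12037371-12037670 on the minus strand, is given with the GC box GGGCGG, on either strand, in capitals.
Grb10, upstream start: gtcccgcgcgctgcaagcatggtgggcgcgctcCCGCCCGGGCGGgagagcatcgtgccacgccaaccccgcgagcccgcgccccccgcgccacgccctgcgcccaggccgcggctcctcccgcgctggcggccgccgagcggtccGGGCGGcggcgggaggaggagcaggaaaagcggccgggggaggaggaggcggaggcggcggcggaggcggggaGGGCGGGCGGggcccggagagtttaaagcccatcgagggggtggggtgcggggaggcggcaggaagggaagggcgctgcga
This window is 80.0% G and C, against a median of 52.7% over all windows, and holds 5 GC boxes, 2 of which overlap, where 35.7% of windows hold at least 1. The window at the other start, chr11:12027922-12028221 on the minus strand, is 52.3% G and C and holds no GC box but 1 cyclic AMP response element half-site (TGACG, in 20.8% of windows on either strand). Of the other words searched on both strands, the FOXO core GTAAACA (3.65% of windows), the full cyclic AMP response element TGACGTCA (1.79%), the TATA box TATAAA (13.6%) and the AP-1 word TGANTCA (7.81%) were in 0 of the 10 windows of the 8 members that the table holds (Irs1, Irs2, Irs4, Grb10, Grb14, Sh2b1, Sh2b2 and Ptpn1). GC boxes were not particular to Grb10 among these members. The window of Grb14, which was not called, also holds 5 and is 75.3% G and C. Those of Sh2b2 (3), Irs1, Irs4 and Ptpn1 (2 each) and Irs2 (1) hold them too, while those of Sh2b1 hold none. A link between these features and the Grb10 difference was not tested.

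Of the 10 members, 1 was called higher in A_212 (Grb10) and 2 were called lower (Irs2 and Sh2b1), while 7 did not pass the test. Over all genes tested, 18.3% were called higher and 20.9% lower, so the count of members called is near that background and is no result about the members. Differences of at least 2-fold were called for Grb10 and Irs2, 2 of the 10 members, against 5.83% of all genes. The median member difference was -0.12, against -0.06 over all genes, and 9 of 10 were below 0, against 61.0% of all genes. The arrays of the lines did not overlap for 5 members, 4 of them lower in A_212, against 51.1% of all genes.

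**Figure D1:**
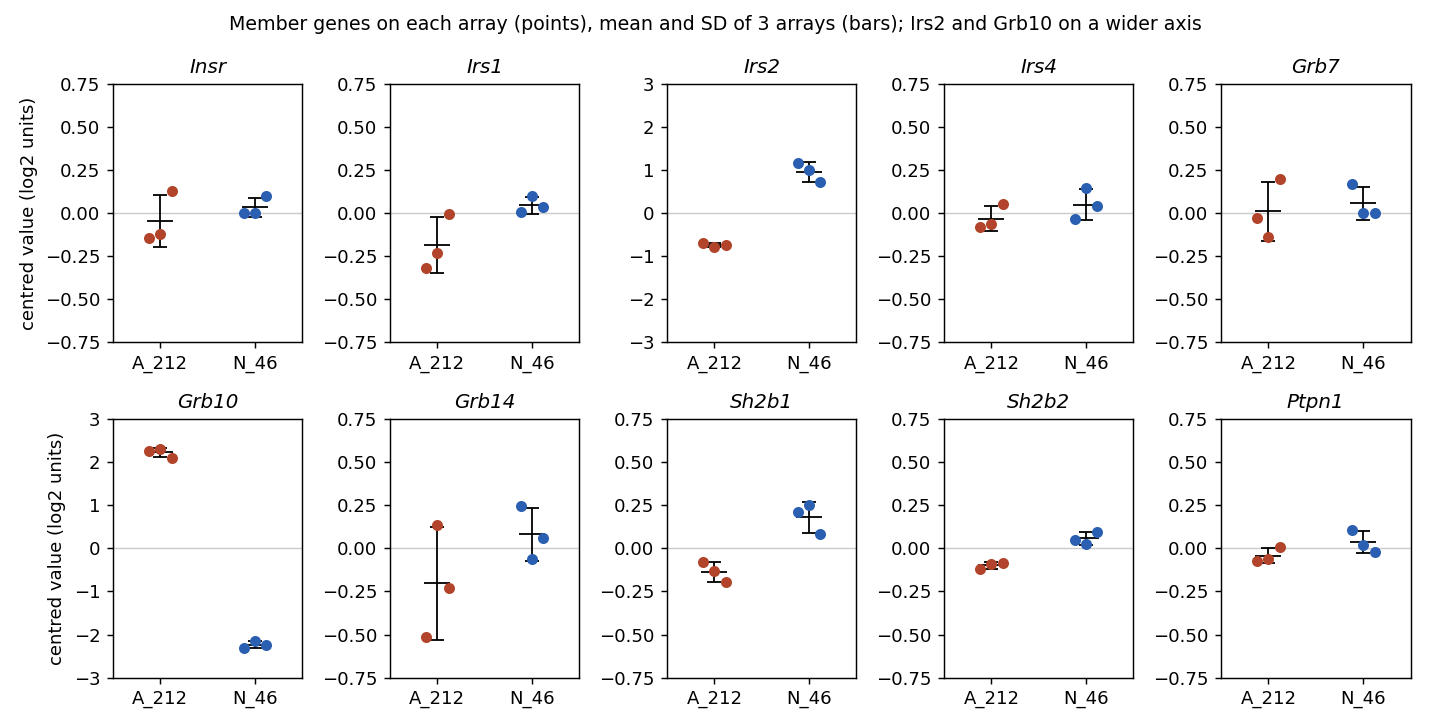
Centred log2 value (vertical axis) of each member gene on each array (points), with A_212 left and N_46 right, and the mean and SD of 3 arrays as bars; Irs2 and Grb10 have a wider axis than the other 8. The Grb10 arrays lie between 2.10 and 2.31 in A_212 and between -2.32 and -2.15 in N_46, the Irs2 arrays are all below 0 in A_212 and all above it in N_46, and the Insr, Irs4, Grb7, Grb14 and Ptpn1 arrays overlap.

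The receptor itself did not pass the test. Insr had centred values of -0.14, -0.12 and 0.13 in A_212 and 0.0011, 0.0019 and 0.098 in N_46, and the third A_212 array was above all N_46 arrays while the other A_212 arrays were below them. The difference was -0.08 ± 0.09 (SE, n = 3 arrays per line, 95% interval -0.27 to 0.11, limma adjusted p = 0.50). Its 2 probe sets gave -0.05 and -0.11, and the change in their difference between the lines was 0.07 (95% interval -0.17 to 0.30). The spread in A_212 (SD 0.15) was wider than in N_46 (SD 0.06), and the third A_212 array was the highest of its line in both probe sets, at 0.07 and 0.18.

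Among the docking proteins, Irs2 fell in A_212 relative to N_46. Irs2 carries insulin and IGF signals to PI3-kinase, and mice that lack it become diabetic. Its values were -0.71, -0.80 and -0.76 in A_212 and 1.16, 0.99 and 0.71 in N_46. Every A_212 array lay below every N_46 array, and the A_212 arrays were closer together (SD 0.05) than the N_46 arrays (SD 0.23). The difference was -1.71 ± 0.11 (SE, n = 3 arrays per line, 95% interval -1.94 to -1.47, limma adjusted p = 5.9e-07), a level 3.26-fold lower in A_212 (2.77 to 3.84), and 90 of the 12393 genes had a more negative difference. It rests on 1 probe set, which the platform annotation names for Irs2 by symbol and gene ID but with no accession, so that the transcript behind it could not be checked here. Leaving out 1 array at a time gave -1.83 to -1.60.

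Irs1, the docking protein of muscle and fat that is also found in brain, had values of -0.32, -0.23 and -0.0039 in A_212 and 0.0039, 0.098 and 0.032 in N_46. All A_212 arrays were lower, the third by a narrow margin. The difference of -0.23 ± 0.09 (95% interval -0.43 to -0.03) did not pass at a limma adjusted p = 0.065. Without the third A_212 array it was -0.32 and passed (limma adjusted p = 0.0089). Leaving out that array also raised the number called over all genes from 4853 to 5124, and why Irs1 passed without it was not tested. Irs4, an X-linked member known for its expression in hypothalamus, had values of -0.08, -0.07 and 0.05 in A_212 and -0.04, 0.14 and 0.04 in N_46. The lines overlapped, and the difference was -0.08 ± 0.08 (95% interval -0.25 to 0.09, limma adjusted p = 0.45).

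The balance within the family was also read per array, as 1 member minus another. Irs2 minus Irs1 was -0.39, -0.57 and -0.75 in A_212 and 1.15, 0.89 and 0.68 in N_46, a change of -1.48, and Irs2 minus Irs4 changed by -1.63. These changes are the Irs2 difference less the small differences of Irs1 and Irs4, so they restate it and are given as a description. An exact two-sided permutation test of 3 against 3 arrays cannot go below p = 0.10, the value of both (adjusted p = 0.125 over the 5 balances computed), and neither passed. Since values are centred, they do not show which docking protein was the more abundant.

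Grb10 rose in A_212 relative to N_46, the largest difference of any member. It encodes an adaptor that binds the activated insulin and IGF1 receptors and dampens them, is phosphorylated by mTORC1, and is imprinted, read from the maternal allele in most mouse tissues and from the paternal allele in neurons. Its values were 2.26, 2.31 and 2.10 in A_212 and -2.32, -2.15 and -2.25 in N_46, so the lines were far apart and the arrays of each line close together. The difference was 4.46 ± 0.08 (SE, n = 3 arrays per line, 95% interval 4.28 to 4.65, limma adjusted p = 1.2e-10), a level 22.1-fold higher in A_212 (19.5 to 25.1), and 10 of the 12393 genes had a larger positive difference.

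The 3 Grb10 probe sets all went the same way but by unequal amounts. Probe set 1425458_a_at had values of 3.18, 3.25 and 3.14 in A_212 and -3.32, -3.14 and -3.29 in N_46, a difference of 6.44 ± 0.08, or 87.1-fold. Probe set 1425457_a_at had 2.18, 2.15 and 1.91 in A_212 and -2.12, -1.91 and -2.21 in N_46, a difference of 4.16 ± 0.11, or 17.9-fold. Probe set 1430164_a_at had 1.41, 1.54 and 1.25 in A_212 and -1.51, -1.41 and -1.25 in N_46, a difference of 2.79 ± 0.10, or 6.91-fold. All 3 carry the suffix that marks probes shared by several transcripts of 1 gene. In a limma fit over all 12821 pairs of probe sets of one gene, of which 16.3% were called, the 3 Grb10 pairs were called, with a change of 3.65 ± 0.11 for 1425458_a_at minus 1430164_a_at (limma adjusted p = 3.1e-08), 1.37 ± 0.12 for 1425457_a_at minus 1430164_a_at and -2.28 ± 0.10 for 1425457_a_at minus 1425458_a_at. The 22.1-fold figure is thus a mean over probe sets that differ, and its place among all genes rests on that mean. Its interval covers the spread between arrays and not that between probe sets. The cause of the unequal amounts was not tested. The 3 other pairs among members, of Insr, Sh2b2 and Ptpn1, were not called, and their changes were between -0.07 and 0.07.

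**Figure D2:**
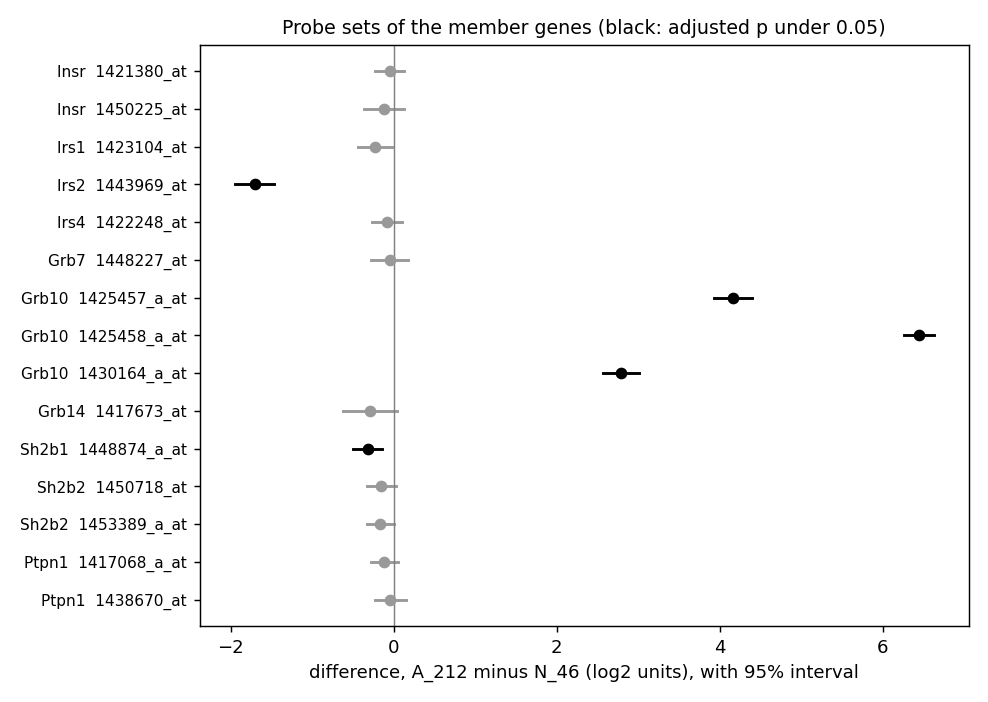
Difference between the lines (A_212 minus N_46, log2 units, horizontal axis) for each of the 15 member probe sets, with its 95% interval from the fit over all probe sets; black marks an adjusted p under 0.05. The 3 Grb10 probe sets lie at 2.79, 4.16 and 6.44 with intervals that do not meet, Irs2 lies at -1.71, and Sh2b1 is the other one called.

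Over all 22690 probe sets 35.9% were called, and 5 of the 15 member probe sets were, the 3 of Grb10 higher and those of Irs2 and Sh2b1 lower in A_212.

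The relatives of Grb10 did not pass the test. Grb7, which is better known as a partner of the receptor ErbB2, had values of -0.03, -0.14 and 0.20 in A_212 and 0.17, -0.00054 and 0.00054 in N_46. The lines overlapped, the difference was -0.05 ± 0.10 (95% interval -0.26 to 0.17, limma adjusted p = 0.73), and its sign turned without the second A_212 array (0.028) or without the first N_46 array (0.0087). Grb14, which blocks the kinase of the insulin receptor, had values of -0.52, 0.13 and -0.23 in A_212 and 0.24, -0.06 and 0.06 in N_46. Its A_212 arrays had the widest spread of any member (SD 0.33), with the second array above 2 of the 3 N_46 arrays. The difference was -0.29 ± 0.15 (95% interval -0.61 to 0.04, limma adjusted p = 0.15), and it rested on single arrays. Without the first A_212 array it was -0.13 (limma adjusted p = 0.48), and without the second it was -0.45 and passed (limma adjusted p = 0.016). Grb10 minus Grb7 changed by 4.51 between the lines and Grb10 minus Grb14 by 4.75, which restates the Grb10 difference less those of Grb7 and Grb14, and the exact permutation test could not pass (p = 0.10 for both, the smallest possible).

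The SH2B adaptors had smaller differences. Sh2b1, which strengthens insulin and leptin receptor signalling and whose loss makes mice obese, had values of -0.08, -0.13 and -0.19 in A_212 and 0.21, 0.25 and 0.08 in N_46. The lines did not overlap, and Sh2b1 fell in A_212 by 0.32 ± 0.08 on the log2 scale (SE, n = 3 arrays per line, limma adjusted p = 0.0068), a level 1.25-fold lower (1.11 to 1.40). This is a size that 1856 genes exceeded in the same direction, and leaving out 1 array at a time gave -0.37 to -0.28. Sh2b2, also called APS, which brings the ubiquitin ligase Cbl to the insulin receptor, had values of -0.12, -0.09 and -0.09 in A_212 and 0.05, 0.03 and 0.10 in N_46. The lines did not overlap here either, but the difference of -0.16 ± 0.07 (95% interval -0.31 to -0.01) did not pass (limma adjusted p = 0.088), and its 2 probe sets gave -0.15 and -0.16. Sh2b2 minus Sh2b1 changed by 0.16 (exact permutation p = 0.20).

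Ptpn1, the phosphatase that switches off the insulin receptor and the leptin-linked kinase JAK2, had values of -0.07, -0.06 and 0.01 in A_212 and 0.10, 0.02 and -0.02 in N_46. The lines overlapped, and the difference was -0.08 ± 0.07 (95% interval -0.23 to 0.08, limma adjusted p = 0.43), with probe sets at -0.11 and -0.04. Its interval leaves out -0.32, the estimate for Sh2b1, but overlaps the Sh2b1 interval (-0.48 to -0.15). The genes were not tested against each other.

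The measured neighbours along the chromosome were then examined for the members called with at least a 2-fold difference. Grb10 lies on chromosome 11, and of the 3 measured genes on each side 1 of 6 was called, against 39.2% of all genes. Its nearest measured neighbours are Ddc, which encodes dopa decarboxylase and is imprinted together with Grb10 in some mouse tissues, at 0.08 ± 0.07 (95% interval -0.08 to 0.25), and Vstm2a at -0.08 ± 0.10. Fignl1 was the one called (0.27 ± 0.07, limma adjusted p = 0.0082), and Ikzf1, Egfr and Plek differed by -0.02, 0.03 and 0.10, with Egfr and Plek having probe sets of both signs. The 2 probe sets of Fignl1 gave 0.02 and 0.52. The interval of Ddc lay far below that of Grb10. Irs2 lies on chromosome 8, where 3 of 6 neighbours were called and they went both ways. The basement membrane collagen genes Col4a1 (0.56 ± 0.07) and Col4a2 (0.98 ± 0.08), a pair that share a promoter region, were higher in A_212, and Rab20 (-0.64 ± 0.14) was lower. Tnfsf13b, Arglu1 and Efnb2 did not pass, at 0.03, -0.13 and 0.14, and the 2 probe sets of Arglu1 had opposite signs.

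**Figure D3:**
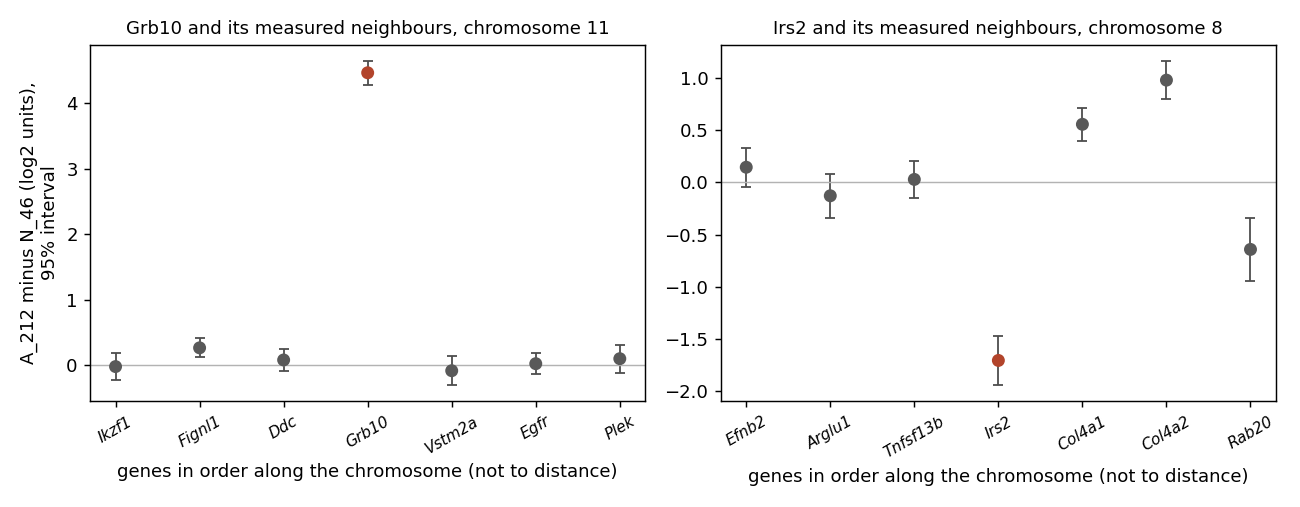
Difference between the lines (A_212 minus N_46, log2 units, vertical axis) with its 95% interval for Grb10 and Irs2 (red) and the 3 measured genes on each side, in chromosome order and not to distance. Grb10 stands at 4.46 among neighbours between -0.08 and 0.27, and Irs2 at -1.71 among neighbours between -0.64 and 0.98.

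The genes whose 6 values were most like those of Grb10, by Euclidean distance over the 6 arrays, were Igfbp6 (distance 0.27), which encodes an IGF-binding protein with a preference for IGF2, the transcription factor gene Tfap2b (0.36) and the lectin receptor gene Cd302 (0.39), with differences of 4.42, 4.59 and 4.38. Those most like Irs2 were the claudin gene Cldn23 (0.29), Zfp703 (0.32) and the circadian deadenylase gene Noct (0.36), at -1.58, -1.48 and -1.45. With 2 lines, likeness over 6 arrays is mainly likeness in the size of the difference.

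The rest of the pathway moved in both directions. Of 29 other receptors and adaptors near the insulin receptor that were measured, 6 were higher in A_212, 5 were lower and 18 did not pass, with a median difference of -0.07 against -0.06 over all genes. Igf2r, which clears IGF2 (1.01 ± 0.07), Nedd4, a ubiquitin ligase that works with Grb10 on the IGF1 receptor (0.61 ± 0.07), the adaptor gene Nck1 (0.53) and caveolin 1 (Cav1, 0.41) were higher. The docking protein gene Dok1 (-1.17 ± 0.10), the Ras activator gene Sos2 (-0.73) and Appl1 (-0.42) were lower in A_212. The IGF1 receptor gene Igf1r was called at -0.20 ± 0.07 (limma adjusted p = 0.039), and the call ended whichever of the 6 arrays was left out (adjusted p between 0.058 and 0.11). The 3 probe sets of Nedd4 lay between 0.26 and 1.20, and their median in place of their mean gave 0.37 (limma adjusted p = 0.0019). The Grb10-binding Gigyf1 and Gigyf2 differed by -0.19 and 0.02 and did not pass.

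Of 27 phosphatases, SOCS proteins and other brakes measured, 7 were higher in A_212, 8 were lower and 12 did not pass, with a median of -0.09. Socs2, an inhibitor of growth hormone receptor signalling, had values of 1.88, 2.11 and 2.10 in A_212 and -1.96, -2.04 and -2.01 in N_46, a difference of 4.03 ± 0.08 (16.4-fold, limma adjusted p = 1.9e-10). Prkcd (1.15) and the pseudokinase gene Trib2 (0.997) were also higher in A_212. Trib3, another pseudokinase that can bind AKT (-1.55), and the receptor phosphatase genes Ptprf (-1.23) and Ptpre (-1.08), both reported to act on the insulin receptor, were lower. The receptor phosphatase genes went both ways, since Ptprs (0.44) and Ptpra (0.44) were called higher in A_212, and Ptprj (0.19) did not pass.

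Of 17 measured genes of PI3-kinase, AKT and their outputs, 3 were higher, 5 lower and 9 did not pass, with a median of -0.07. Pdpk1 (0.48) and Tsc2 (0.45) were higher in A_212, and Foxo1 (-0.58 ± 0.07), Akt2 (-0.38), Rheb (-0.35) and Gsk3a (-0.35) were lower. Of 18 genes known to respond to FOXO factors, as Irs2 and Insr also do, 5 were higher, 4 lower and 9 did not pass, with a median of -0.0028. Sesn3 (1.29), Bcl2l11 (1.10) and Txnip (1.05) were higher in A_212, and Pdk4 (-1.89 ± 0.09), Gadd45a (-1.19 ± 0.27) and Klf15 (-1.01 ± 0.20) were lower. The N_46 values were 1.54, 0.26 and 0.48 for Gadd45a and 1.25, 0.49 and 0.24 for Klf15, with the first array highest. Leaving out 1 array at a time gave -1.44 to -0.81 for Gadd45a and -1.22 to -0.72 for Klf15. The counts called in the 4 lists were between 37.9% and 55.6% of their measured members, against 39.2% of all genes.

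**Figure D4:**
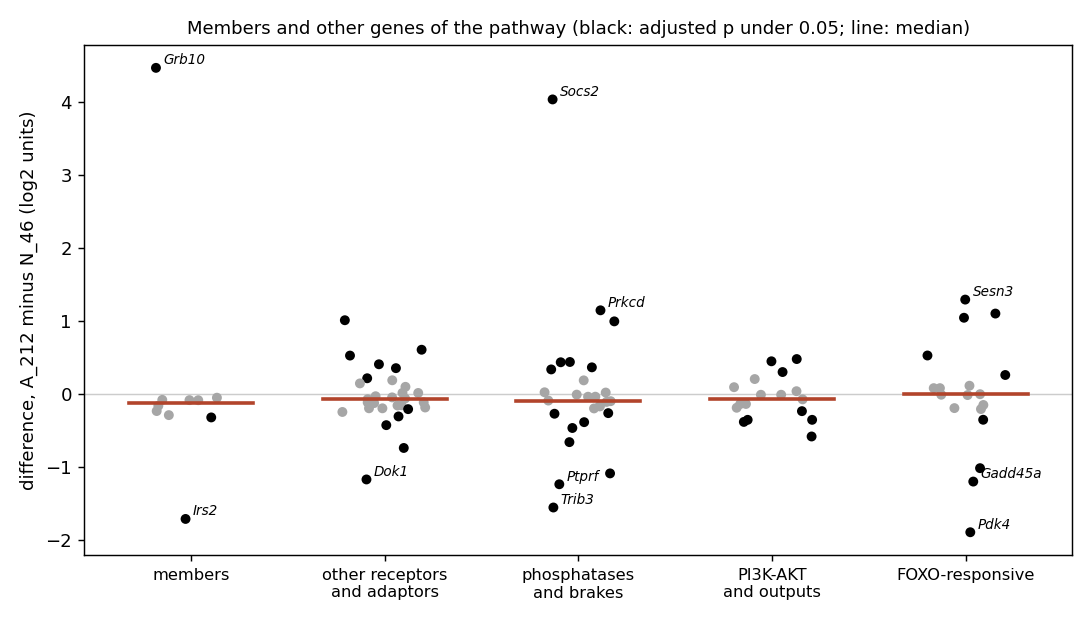
Difference between the lines (A_212 minus N_46, log2 units, vertical axis) for the 10 members and the 4 groups of other pathway genes, with 1 point per gene, black where the adjusted p is under 0.05, and the median as a line. The medians lie between -0.12 and 0.00, and Grb10 (4.46) and Socs2 (4.03) stand above all other points.

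Markers of other cell types moved with the same comparison. Among fibroblast and mesenchymal genes, 11 of the 18 markers rose in A_212 and 1 fell, against 18.3% of all genes called higher and 20.9% called lower, and their mean centred value per array was between 0.77 and 0.94 in A_212 and between -0.91 and -0.75 in N_46. Among smooth muscle and pericyte genes, 7 of the 10 markers rose in A_212 and 1 fell, with array means of 0.44 to 0.56 in A_212 and -0.81 to -0.47 in N_46. Of 11 neural progenitor markers 1 was higher and 8 were lower, with array means of -0.75 to -0.58 in A_212 and 0.62 to 0.70 in N_46. The shares called either way in these lists were 66.7%, 80% and 81.8%, against 39.2% of all genes. Endothelial (3 higher and 3 lower of 10, 60%) and astrocyte markers (3 and 2 of 10, 50%) had shares above it too, with no test of the difference. Microglia and macrophage (2 and 2 of 10, 40%), oligodendrocyte lineage (3 and 0 of 9, 33.3%) and neuronal markers (3 and 2 of 17, 29.4%) were near or below that share. The marker lists were chosen with earlier results of these data known, so their shares are given as a description only. The part of these marker differences in the Grb10 and Irs2 results was not tested.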

How the data were processed

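RNA of 3 A_212 and 3 N_46 plates was labelled as cRNA from 5 µg of total RNA and hybridised to 6 arrays, per the labels' protocols. The authors' deposited log2 values were made with RMA, per the submitters' processing notes, with no version stated. The deposited values have a median of 0 over the 6 arrays for every probe set (largest deviation 5e-07), a centring that no source used here describes, and log base 2 was taken because RMA gives it. Because RMA sets all arrays to 1 distribution, these values cannot show a change in total RNA per cell.

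Of 22690 probe sets, 20380 were named for 1 gene by the platform annotation, 691 for several (left out), 1555 for none and 64 were controls. A RefSeq gene table (GRCm38.p6) held 20351 of those named and changed 0 symbols. Gene values were means of probe sets (4956 genes had more than 1). The tests were limma's lmFit and eBayes, two-sided, over all genes, over all probe sets and over all pairs of probe sets of one gene, and exact permutation tests for 5 balances between members. The limma fits over genes and over pairs were tested on simulated data with independent noise. Such data hold no effect shared by the genes of 1 array, so that test cannot show how the fits handle one. Samples were grouped by the line in the labels. No level filter was possible.

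The members, lists and tests were chosen with earlier results of these data known. The rule for naming genes took all members and their probe sets, up to 5 called genes each way per pathway list, the 3 genes nearest in pattern and the 3 measured neighbours on each side of members called with a log2 difference of at least 1. Where a list had many such genes, the text gives some. Alternatives were other gene summaries, scalings, a filter on range, array weights, robust eBayes, a replicate block, treat and each array left out. The tools were limma 3.58.1 in R 4.3.3, and scipy 1.17.1, pandas 2.3.3, numpy 2.4.6 and matplotlib 3.10.9 in Python 3.11.15.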

Additional observations from a re-analysis of the deposited data

How the results depend on the processing

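Grb10 and Irs2 kept their direction and their call in every alternative that could be computed for them. Grb10 ranged from 2.79 to 6.44, both ends being single probe sets, and Irs2 from -1.83 to -1.60. The number of members called higher in A_212 was 1, except that it was 0 with plain probe sets alone, where 8 members had a value and Grb10 and Sh2b1 had none. The number called lower was 2, against 1 with plain probe sets alone, 4 with array weights (Irs1 at adjusted p = 0.011 and Sh2b2 at 0.047 were added) and 1 with treat against a 2-fold bound. Leaving out 1 array gave 1 higher and 2 to 3 lower, and 4 to 6 of the 15 probe sets called. With 1 array left out, some differences that were not called changed sign: Grb7 ranged from -0.141 to 0.0283, Ikzf1 from -0.115 to 0.0646, Vstm2a from -0.162 to 0.0118, Tnfsf13b from -0.0259 to 0.0867 and Egfr from -0.0263 to 0.0651. Ikzf1 also turned, to 0.0108, with arrays set to the same median. The cause was not tested. For the 55 other genes followed through the alternatives (pathway, neighbouring and nearest genes), 740 of 813 results kept their sign and call. Of the rest, 67 lost their call and 6 changed sign. With the replicate number as a block, the same 1 and 2 members and 5 probe sets were called, and 4834 genes were called in place of 4853. The deviations of same-numbered arrays of the lines correlated at -0.03, -0.01 and 0.09, so the numbers were not taken to pair the plates. With centred values, signal over background is unknown, and a member near background in both lines would look unaltered.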
